A study of Mus musculus with 46 samples.

Results

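The 40 genes described here are testis-side genes of the mouse embryonic gonad. In XX gonads homozygous for an Enh13 mutation, these genes covered on average most of the log distance from XX to XY heterozygotes, or more. They were chosen from 33331 gene rows on the log2(TPM + 1) scale, where TPM is a transcript level corrected for transcript length and library depth. A gene was kept if its mean in 6 XY heterozygous libraries was at least 1 log2 unit above its mean in 6 XX heterozygous libraries, with every XY heterozygote above every XX heterozygote. Its mean over 15 XX homozygous libraries also had to cover at least 0.7 of that distance, a share called reach here, which is 0 at the XX heterozygous mean and 1 at the XY heterozygous mean. The sex difference was met by 482 genes and the whole rule by 51. The rule leaves out 21 genes by name, among them Sox9 and Amh, and 11 of the 51 were lost that way, which leaves 40.

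Poly(A) RNA of gonad pairs from E12.5 mouse embryos was sequenced in 46 libraries, of which 24 are XX and 22 are XY. Every mutant group carries an induced mutation in Enh13, which is an enhancer that lies far from its target Sox9. The homozygous groups were XX 3bp-12bp-del (n = 5), XX 1bp-ins (n = 5), XX 3bp-del (n = 5), XY 3bp-12bp-del (n = 3), XY 1bp-ins (n = 5) and XY 3bp-del (n = 5). The heterozygous groups were XY 1bp-ins, XY 3bp-del, XX 1bp-ins and XX 3bp-del, and the wild-type groups were XY and XX (n = 3 each). The labels do not say what the 3bp-12bp-del genotype consists of, and it is called homozygous as labelled. No label says how many founder lines stand behind a genotype or whether replicates within a group came from separate animals, so p-values measure only the spread between these samples. In bulk gonads, fewer cells of a type and less RNA per cell cannot be told apart.

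In the XY gonad the SRY protein switches on Sox9 in the supporting cells, partly through Enh13, and SOX9 turns these cells into Sertoli cells. Sertoli cells then secrete hormones, growth factors and matrix proteins that steer germ cells, steroid-producing cells and vessels, and FGF9 signalling helps to keep Sox9 on. In the XX gonad Sox9 stays low and the supporting cells become pregranulosa cells under WNT and FOXL2 control.

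The libraries held 29909111 to 46150400 estimated counts each. Sox9 stood at 45.7 to 99.2 TPM in the 15 XX homozygotes, at 52.3 to 87.8 TPM in the 6 XY heterozygotes and at 3.92 to 4.90 TPM in the 6 XX heterozygotes. Gonad markers were present throughout, with Wt1 between 179 and 371 TPM. XY wild-type replicate 3 stood apart, since Nr5a1, a gonad transcription factor gene, was at 111 TPM there, against 242 and 230 TPM in the other XY wild types. Its summed level of 9 mesonephros markers was 241 TPM, against 68.8 and 76.4 TPM, and Cdh16, a kidney tubule cadherin gene, reached 75.4 TPM. XX wild-type replicate 1 had a summed adrenal and chromaffin marker level of 148 TPM, against 5.86 and 5.44 TPM, with Dbh and Th, enzymes of catecholamine synthesis, at 55.0 and 36.7 TPM. The adrenal cortex enzyme gene Cyp11b1 was listed at 0 in 32 of the 46 libraries. The main results on the wild types are given also without XY wild-type replicate 3.

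**Figure D1:**
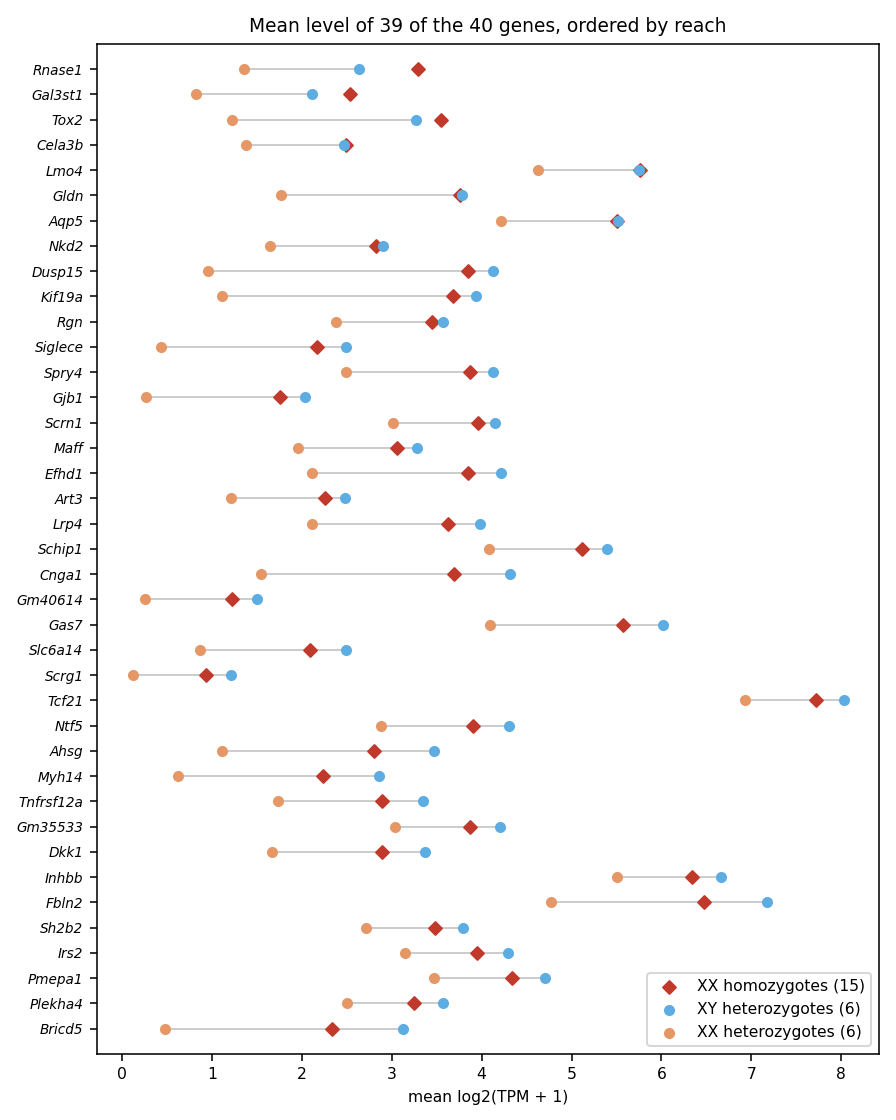
Mean log2(TPM + 1) of 39 of the 40 genes (x axis) in 15 XX homozygous, 6 XY heterozygous and 6 XX heterozygous libraries, with genes ordered by reach from Bricd5 at 0.70 at the bottom to Rnase1 at 1.51 at the top. The grey line spans the heterozygous sex difference, and the XX homozygous mean lies to the right of the XY heterozygous mean for 5 genes.

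Levels of the genes in XX homozygotes and in both heterozygous groups chose them, so these levels and every reach value are descriptions without a test. Reach was between 0.7 and 0.8 for 21 genes, between 0.8 and 1 for 14, and 1 or more for Lmo4, Cela3b, Tox2, Gal3st1 and Rnase1. Just inside the limit lay Bricd5, Plekha4 and Pmepa1, with reach of 0.701, 0.704 and 0.704. Just outside it lay Ptk2b, Chst1 and Krt79, at 0.698, 0.698 and 0.6998. At the limit on the sex difference, Plekha4 and Sh2b2 were among those just inside, at 1.06 and 1.08 log2 units. Slco3a1, Etv4 and Cnp were just outside at 0.997, 0.991 and 0.979. For 34 of the 40 genes all 15 XX homozygous libraries lay above every XX heterozygote, which holds for 2.12% of all 15730 genes tested in the wild types. Likewise 34 lay above every XX wild type (3.06% of all genes). The members differed in how evenly they moved. The 3bp-12bp-del homozygotes alone had a reach of 0.7 or more for 38 genes, the 1bp-ins homozygotes for 34 and the 3bp-del homozygotes for 19.

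Among secreted and matrix proteins, Inhbb encodes the beta-B subunit of activin and inhibin B, hormones of the TGF-beta family, and is on the Sertoli list. Its lowest, median and highest levels were 49.0, 83.0 and 102 TPM in XX homozygotes, 66.5, 107 and 126 TPM in XY heterozygotes and 40.7, 44.4 and 47.6 TPM in XX heterozygotes. Every XX homozygote was above the XX heterozygotes, and 13 of 15 were at or above the lowest XY heterozygote, 3bp-del replicate 2. The next XY heterozygote was at 91.6 TPM, which all 3bp-12bp-del and no other XX homozygotes reached. Fbln2 encodes fibulin-2, a matrix protein of basement membranes and elastic fibres. Its levels ran from 50.4 through 81.0 to 154 TPM in XX homozygotes, from 83.3 through 157 to 219 TPM in XY heterozygotes and from 20.7 through 25.6 to 35.1 TPM in XX heterozygotes. Only 7 of the 15 XX homozygotes entered the XY heterozygous range, and its reach was 0.71.

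Dkk1, which blocks WNT signalling from outside the cell, stood at 6.79 ± 2.63 TPM in XX homozygotes, 9.70 ± 3.13 TPM in XY heterozygotes and 2.28 ± 0.88 TPM in XX heterozygotes (SD). Ntf5, which encodes neurotrophin 4, a ligand of the TrkB receptor, averaged 14.3 ± 3.5, 19.3 ± 4.8 and 6.41 ± 1.13 TPM in the same order of groups. Ahsg, the plasma glycoprotein fetuin-A, averaged 6.41 ± 2.59 TPM in XX homozygotes, 10.2 ± 1.5 TPM in XY heterozygotes and 1.17 ± 0.19 TPM in XX heterozygotes. For Ahsg 3 of the 15 XX homozygotes were at or above the lowest XY heterozygote. Gldn, which encodes gliomedin, known from the nodes of Ranvier in peripheral nerve, had a reach of 0.99. Its levels were 7.62, 12.3 and 20.9 TPM in XX homozygotes (lowest, median and highest), 8.85, 13.2 and 17.8 TPM in XY heterozygotes and 2.05, 2.42 and 2.87 TPM in XX heterozygotes. XX homozygotes and XY heterozygotes overlapped almost completely for Gldn.

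Rnase1, a secreted pancreatic-type ribonuclease gene, had the highest reach, 1.51. It was listed at 4.17, 8.58 and 12.47 TPM in XX homozygotes (lowest, median and highest), 3.12, 5.58 and 7.75 TPM in XY heterozygotes and 0.74, 1.61 and 2.46 TPM in XX heterozygotes. The 13 XY homozygotes ran from 2.84 through 4.06 to 8.52 TPM, so the XX homozygous median was above the highest XY heterozygote and above the highest XY homozygote. Its reach was 1.65 in the 3bp-12bp-del, 1.38 in the 1bp-ins and 1.51 in the 3bp-del homozygotes. Cela3b, an elastase-type protease gene of the pancreas, had a reach of 1.02 with 4.77 ± 1.19 TPM in XX homozygotes, 4.55 ± 0.37 TPM in XY heterozygotes and 1.65 ± 0.54 TPM in XX heterozygotes. Rnase1, Cela3b, Gldn and the other genes of reach near or above 1 were picked out after their values were seen.

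The promoter windows of 3 members are shown because they span the set. Rnase1 has the highest reach, Cnga1 is among the 5 largest heterozygous sex differences, and Dkk1 encodes a secreted WNT antagonist. Each window runs from 250 bases before to 50 bases after the gene start in RefSeq on GRCm38.p6, written 5′ to 3′ on the gene's strand, which is the minus strand for all 3. The regions are chr14:51146718-51147017 for Rnase1, chr5:72642703-72643002 for Cnga1 and chr19:30549447-30549746 for Dkk1. Capitals mark matches on either strand to ACAAAG or AACAAT, core letters bound by SOX and SRY proteins, to AGATAA, bound by GATA factors, or to AAGGTCA, bound by NR5A1.
Rnase1: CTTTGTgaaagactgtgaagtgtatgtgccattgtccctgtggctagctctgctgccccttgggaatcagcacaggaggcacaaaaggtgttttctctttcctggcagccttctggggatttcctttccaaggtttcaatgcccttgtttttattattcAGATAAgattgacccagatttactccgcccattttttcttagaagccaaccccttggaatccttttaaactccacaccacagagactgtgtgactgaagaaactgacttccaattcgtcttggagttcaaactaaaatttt
Cnga1: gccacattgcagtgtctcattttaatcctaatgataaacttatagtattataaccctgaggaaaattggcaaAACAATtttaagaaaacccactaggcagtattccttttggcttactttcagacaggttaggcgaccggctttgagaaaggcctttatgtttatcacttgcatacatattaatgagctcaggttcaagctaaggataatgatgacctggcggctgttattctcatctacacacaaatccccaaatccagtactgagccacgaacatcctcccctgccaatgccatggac
Dkk1: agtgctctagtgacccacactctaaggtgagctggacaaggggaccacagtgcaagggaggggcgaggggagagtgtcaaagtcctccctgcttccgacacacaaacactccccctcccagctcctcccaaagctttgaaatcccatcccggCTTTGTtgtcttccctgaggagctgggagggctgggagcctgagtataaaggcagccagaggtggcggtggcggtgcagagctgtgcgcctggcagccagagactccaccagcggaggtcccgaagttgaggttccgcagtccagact
Rnase1 holds ACAAAG on the opposite strand and AGATAA on the gene's strand, Cnga1 holds AACAAT, and Dkk1 holds ACAAAG on the opposite strand, with no overlap between matches. RefSeq windows were at hand for 29 of the 40 genes, 47 windows in all. ACAAAG was in 17.0% of these windows and in 18.7% of all 32851 windows, and AACAAT in 10.6% and 10.7%. AGATAA was in 10.6% of the members' windows and 11.2% of all, and AAGGTCA in 4.26% and 4.72%. None of the 4 motifs was more frequent in the members' windows than in all windows, and a match is a description of letters, not of a binding site.

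Among receptors, channels and other membrane proteins, Lrp4 encodes a receptor that binds agrin and the WNT antagonist sclerostin. It ran from 6.75 through 9.08 to 23.9 TPM in XX homozygotes, from 10.3 through 15.2 to 21.5 TPM in XY heterozygotes and from 2.54 through 3.31 to 4.11 TPM in XX heterozygotes. Its reach depended on genotype, with 1.17 in 3bp-12bp-del, 0.69 in 1bp-ins and 0.57 in 3bp-del homozygotes. Cnga1, a cyclic nucleotide-gated channel subunit known from rod photoreceptors, stood at 12.8 ± 5.2 TPM in XX homozygotes, 19.1 ± 2.3 TPM in XY heterozygotes and 1.94 ± 0.36 TPM in XX heterozygotes. Aqp5, a water channel gene of secretory glands, had a reach of 0.99 that was similar in the 3 genotypes (1.03, 0.95 and 0.99 in 3bp-12bp-del, 1bp-ins and 3bp-del). It averaged 44.7 ± 6.4 TPM in XX homozygotes, 45.1 ± 6.3 TPM in XY heterozygotes and 17.8 ± 2.9 TPM in XX heterozygotes. Pmepa1, a membrane protein that dampens TGF-beta signalling, averaged 19.6 ± 3.6, 25.3 ± 2.8 and 10.3 ± 2.3 TPM in these groups, and only 2 of 15 XX homozygotes entered the XY heterozygous range.

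Siglece, a sialic acid-binding lectin gene of myeloid cells, averaged 3.69 ± 1.39 TPM in XX homozygotes, 4.76 ± 1.35 TPM in XY heterozygotes and 0.355 ± 0.144 TPM in XX heterozygotes. The summed macrophage markers ran from 52.9 to 143 TPM in XX homozygotes, from 45.7 to 64.9 TPM in XY heterozygotes and from 66.9 to 121 TPM in XX heterozygotes. Which cells the Siglece RNA came from was not tested. Tnfrsf12a, the receptor for the cytokine TWEAK, had a reach of 0.72, Slc6a14, an amino acid transporter gene, 0.76, and Art3, an ecto-ADP-ribosyltransferase family gene, 0.82. Gjb1, the gap junction protein connexin 32, had 0.84. Slc6a14, Gjb1 and the calcium-binding lactonase gene Rgn are the 3 X-linked members, and Rgn had a reach of 0.90.

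Several members act inside signalling pathways. Spry4 encodes a feedback inhibitor of receptor tyrosine kinase signalling that FGF induces. It ran from 9.65 through 12.9 to 19.4 TPM in XX homozygotes, from 14.5 through 16.6 to 18.9 TPM in XY heterozygotes and from 3.56 through 4.55 to 5.74 TPM in XX heterozygotes. Of 15 genes on the FGF and ERK response list, 6 met the sex-difference part of the rule, with reach from 0.400 for Il17rd to 0.842 for Spry4. The ETS factor gene Etv4 had a heterozygous sex difference of 0.991 log2 units, just under the limit, and a reach of 1.46, at 33.8 ± 6.3 TPM in XX homozygotes, against 24.9 ± 1.0 TPM in XY wild type and 10.5 ± 2.5 TPM in XX wild type. Dusp15, a dual-specificity phosphatase gene, had the largest heterozygous sex difference, 3.17 log2 units, with 14.5 ± 6.4 TPM in XX homozygotes, 17.3 ± 5.9 TPM in XY heterozygotes and 0.975 ± 0.377 TPM in XX heterozygotes. Nkd2, an inhibitor of WNT signalling that binds Dishevelled, had a reach of 0.94 and stood at 6.23 ± 1.47, 6.55 ± 1.11 and 2.21 ± 0.78 TPM. The insulin signalling adaptor gene Irs2 and the adaptor gene Sh2b2 had reach of 0.705 and 0.707, and Plekha4, a phosphoinositide-binding regulator of WNT signalling, 0.704.

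The transcription regulators differ widely in level. Tcf21, a basic helix-loop-helix factor of gonadal stroma, was the most abundant member, with lowest, median and highest levels of 162, 211 and 273 TPM in XX homozygotes, 236, 265 and 273 TPM in XY heterozygotes and 97.7, 120 and 152 TPM in XX heterozygotes. All XX homozygotes were above the XX heterozygotes, but only 3 of 15 entered the narrow XY heterozygous range. Lmo4, a LIM-domain cofactor gene, had a reach of 1.00, with 53.3 ± 5.6 TPM in XX homozygotes, 53.1 ± 5.2 TPM in XY heterozygotes and 23.9 ± 2.9 TPM in XX heterozygotes. Tox2, an HMG-box factor gene, reached 1.14 and averaged 10.8 ± 1.9, 8.68 ± 1.12 and 1.34 ± 0.17 TPM. Maff, a small MAF factor gene, had a reach of 0.83.

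Cytoskeletal and other intracellular proteins made up much of the rest. Gas7, a membrane-shaping adaptor gene of the actin cytoskeleton, averaged 48.7 ± 15.6 TPM in XX homozygotes, 64.5 ± 9.2 TPM in XY heterozygotes and 16.2 ± 1.4 TPM in XX heterozygotes. Kif19a, a kinesin that trims cilia, ran from 6.54 through 11.6 to 23.2 TPM in XX homozygotes, from 6.37 through 16.3 to 20.6 TPM in XY heterozygotes and from 0.77 through 1.22 to 1.5 TPM in XX heterozygotes. All 15 XX homozygotes were at or above its lowest XY heterozygote, 3bp-del replicate 2 at 6.37 TPM, and without that library 6 of the 15 were. The myosin heavy chain gene Myh14, Schip1, Efhd1 and Scrn1 had reach of 0.72, 0.79, 0.83 and 0.83. Gal3st1, which makes the sulfated lipids that male germ cells need, reached 1.32 and averaged 5.01 ± 1.64 TPM in XX homozygotes, 3.47 ± 1.20 TPM in XY heterozygotes and 0.783 ± 0.262 TPM in XX heterozygotes. The remaining members were Bricd5 (reach 0.70), Scrg1 (0.75) and the non-coding RNAs Gm35533 (0.72) and Gm40614 (0.77). Scrg1, Gm40614 and Gjb1 were among the scarcest, listed at no more than 2.32, 1.86 and 4.73 TPM in any XX homozygote.

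**Figure D2:**
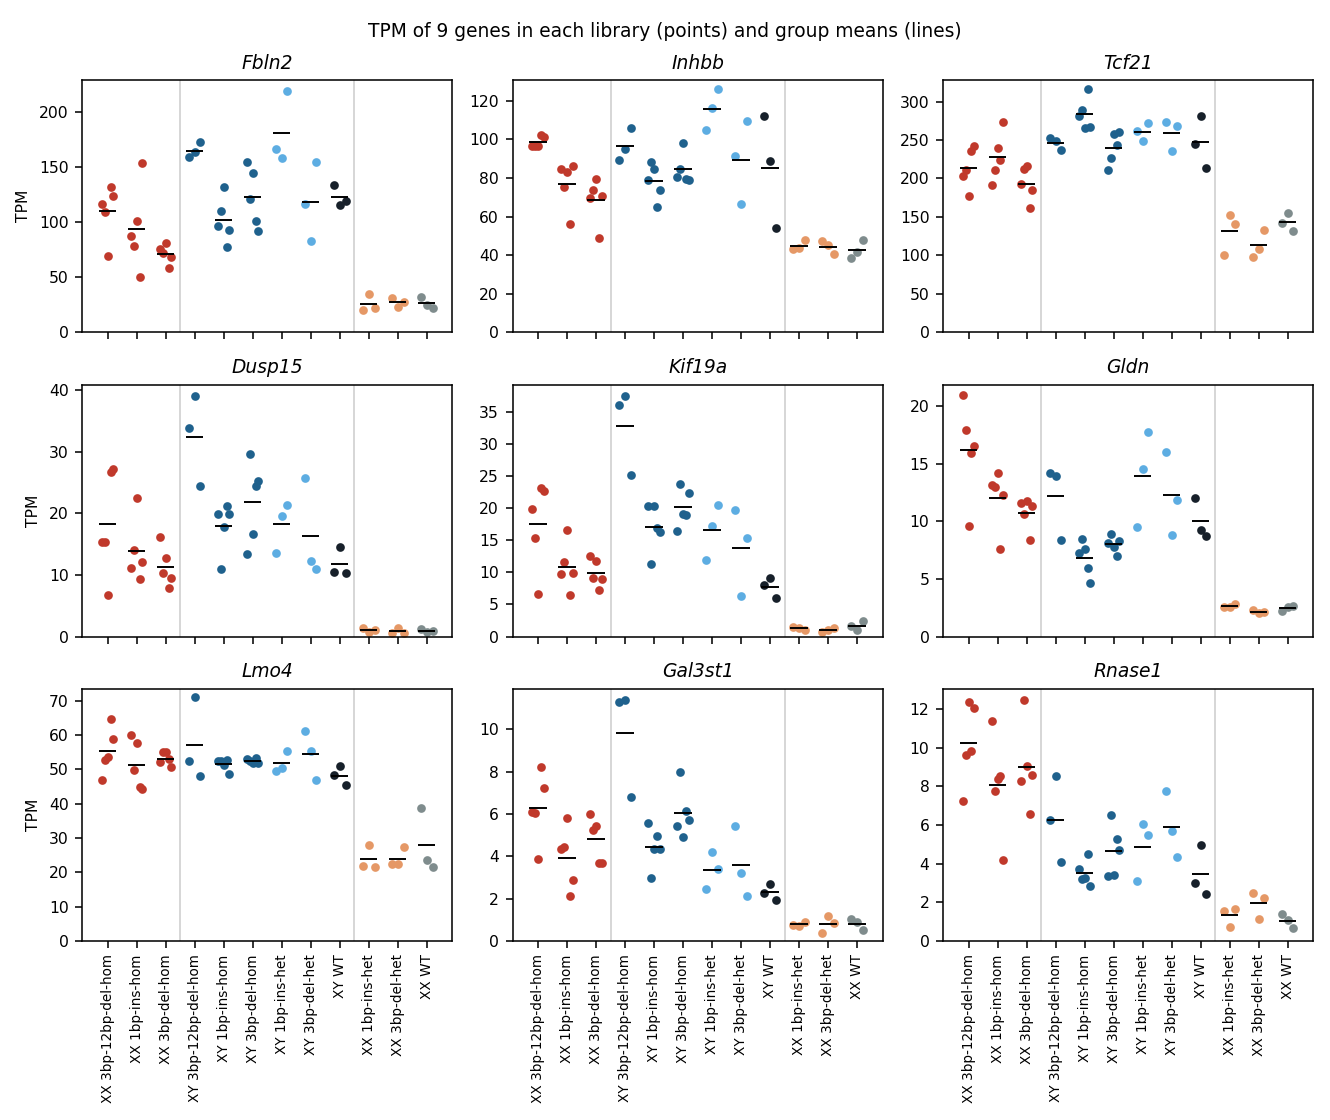
TPM (y axis, from 0) of 9 of the 40 genes in each of the 46 libraries (points), by group (x axis), with group means as lines, XX homozygotes at the left of each panel and XX heterozygotes and XX wild type at the right. By group means, Tcf21 in XX homozygotes lies between the XX controls and the XY groups, whereas Lmo4 lies at the XY level and Rnase1 above it. Single XX homozygous and XY libraries overlap for all of these genes.

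The XX homozygous libraries differed in how many members lay at the XY level. The number of members at or above the lowest XY heterozygote was 31, 31, 16, 39 and 38 in the 3bp-12bp-del libraries, 27, 23, 36, 7 and 29 in the 1bp-ins libraries and 25, 16, 24, 9 and 16 in the 3bp-del libraries. The lowest counts thus fell in replicate 4 of 1bp-ins and of 3bp-del, and the highest in 3bp-12bp-del replicates 4 and 5. Of the 40 genes 21 have their lowest XY heterozygote in 3bp-del replicate 2, and without that library the XX homozygotes had 4 to 35 members at that level, with the lowest in 3bp-del replicate 4 and the highest in 3bp-12bp-del replicate 4. Not every gene kept this order, since Tox2 was at 12.38 TPM in 3bp-12bp-del replicate 3, with 16 members, and at 10.4 TPM in replicate 4, with 39. With all 6 XY heterozygotes as the measure, the XY homozygotes had 24 to 37 members at that level, XY wild type 34, 34 and 15 in replicates 1, 2 and 3, and XX wild type 1, 0 and 0. Sox9 was at 45.7 and 53.0 TPM in the XX homozygotes with 7 and 9 members, and at 99.2 and 83.5 TPM in those with 39 and 38. Between these ends Sox9 did not keep the order. It was at 81.3 TPM in 3bp-12bp-del replicate 3, with 16 members, and at 62.3 TPM in replicate 1, with 31. Amh did not keep the order throughout either. In 1bp-ins replicate 5, with 29 members and 51.4 TPM of Sox9, Amh was at 809 TPM, while the other 14 XX homozygotes held 12.4 to 180 TPM. In that library the summed mesonephros list, most of which is Emx2, a gene the XX gonad also expresses, was 62.2 TPM, within the XY heterozygous range of 49.9 to 77.1 TPM. Over the 15 XX homozygotes it ran to 197 TPM.

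**Figure D3:**
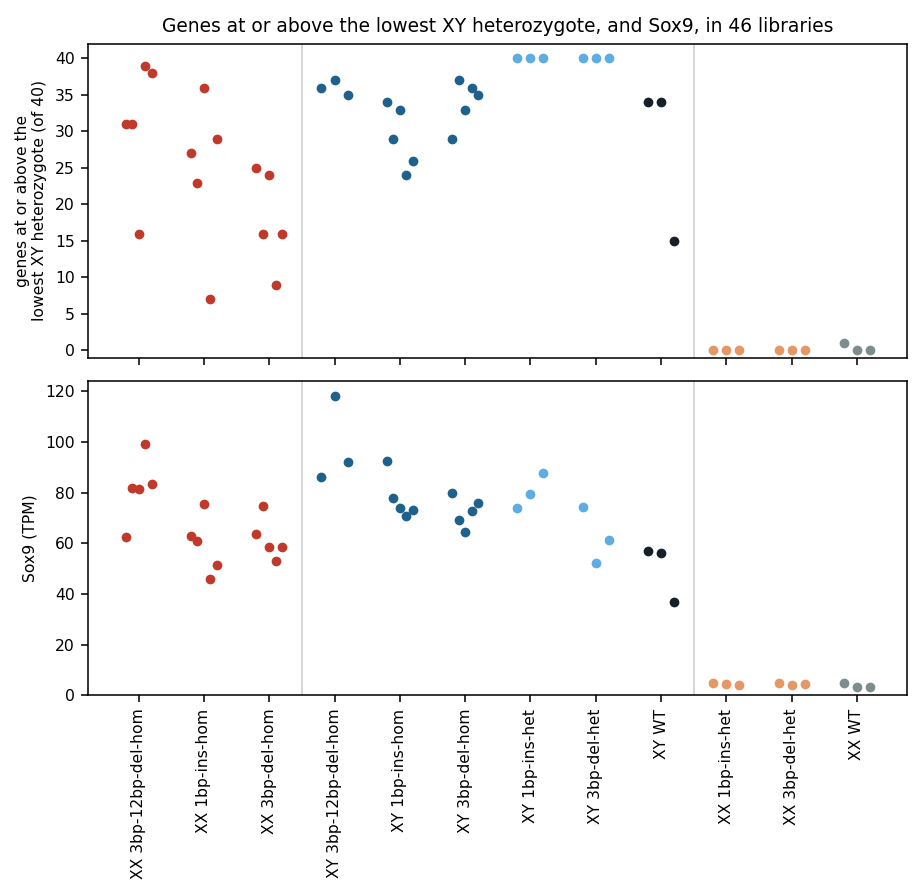
Number of the 40 genes at or above their lowest XY heterozygous value (upper panel) and Sox9 in TPM (lower panel) in each of the 46 libraries, by group along the x axis. XX homozygotes span 7 to 39 genes, XX heterozygotes hold 0 by the rule, and XY wild-type replicate 3 holds 15.

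The wild-type libraries were not used by the rule and ask whether the sex difference of these genes is there without a mutation. Compared with XX wild type, XY wild type had higher levels of 34 of the 40 genes and lower levels of 0 (edgeR quasi-likelihood test, Benjamini-Hochberg adjusted p under 0.05). Over all 15730 genes tested, 5.1% were called higher and 5.94% lower. The filter on low counts removed Gm40614, and Inhbb, Gm35533, Scrg1, Scrn1 and Gjb1 were tested and not called. The median log2 fold change of the 39 tested genes was 1.66, against -0.002 over all genes. Of the 431 other genes with the heterozygous sex difference and a reach under 0.7, 426 were tested, 361 were higher, 0 were lower and the median was 1.63. The 3 XY values lay above the 3 XX values for 38 of the 40 genes, against 12.7% of all genes tested. Of the 40, 5 had fewer than 3 XX wild-type libraries at 10 or more counts (Bricd5, Scrg1, Gm40614 and Gjb1 among them). Those of them that were tested passed the filter through the XY libraries, except Scrg1. It had 10 or more counts in 2 XY and 1 XX wild-type libraries. Of the other 35 genes, 32 were called higher.

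Bricd5, which encodes a BRICHOS-domain protein, had 8.27, 6.38 and 2.95 TPM in XY wild type, against 0.17, 0.38 and 0.06 TPM in XX wild type (log2 fold change 4.92 ± 0.70 SE, edgeR). It had 10 or more counts in 0 of the 3 XX wild types and so passed the filter through the XY libraries, which makes its fold a description. Siglece had 4.65, 5.17 and 2.43 TPM in XY, against 0.43, 0.26 and 0.32 TPM in XX (3.71 ± 0.47, adjusted p = 0.00413, edgeR). Dusp15 had 10.5, 14.5 and 10.3 TPM in XY, against 1.29, 0.76 and 0.90 TPM in XX (3.58 ± 0.32, adjusted p = 0.00109, edgeR). The groups of these 3 genes did not overlap, and replicate 3 was the lowest XY library for each. Without it the log2 fold changes were 5.26 ± 0.50 for Bricd5, 4.04 ± 0.28 for Siglece and 3.75 ± 0.26 for Dusp15. Cnga1 and Ahsg followed with log2 fold changes of 3.06 ± 0.51 and 3.04 ± 0.53.

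Among the abundant members, Fbln2 had 134, 115 and 120 TPM in XY wild type, against 32.4, 24.9 and 22.2 TPM in XX wild type (2.22 ± 0.13, adjusted p = 0.00031, edgeR), the smallest adjusted p of the 40. Tcf21 had 245, 282 and 214 TPM in XY, against 142, 156 and 132 TPM in XX (0.90 ± 0.19, adjusted p = 0.0248, edgeR). Lmo4 had 48.2, 50.9 and 45.4 TPM in XY, against 38.7, 23.4 and 21.6 TPM in XX (0.95 ± 0.23, adjusted p = 0.0473, edgeR). The XX value of 38.7 TPM is replicate 1, the library with adrenal and chromaffin markers. Aqp5 was called at 1.67 ± 0.35 and Gas7 at 1.53 ± 0.20, and among signalling genes Spry4 was called at 1.38 ± 0.17, Nkd2 at 1.27 ± 0.18 and Irs2 at 1.21 ± 0.13.

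Inhbb had 112, 88.8 and 54.1 TPM in XY wild type, against 38.3, 41.9 and 47.8 TPM in XX wild type, with no overlap, and was not called (1.12 ± 0.32, adjusted p = 0.0727, edgeR). Scrn1 also kept its groups apart, at 12.4, 13.8 and 12.3 TPM in XY and 10.3, 7.72 and 9.56 TPM in XX (0.63 ± 0.17, adjusted p = 0.0558, edgeR). Scrg1 and Gm35533 were the 2 genes whose groups overlapped. Scrg1 had 1.47, 1.06 and 0 TPM in XY against 1.41, 0.08 and 0.10 TPM in XX, and Gm35533 had 19.8, 16.1 and 7.75 TPM in XY against 7.65, 9.91 and 9.33 TPM in XX. In both, XY replicate 3 was the lowest XY library, and for Scrg1 XX replicate 1 was the highest XX library. Without XY replicate 3 there were 38 members called higher (21.5% of all genes), and without it and XX replicate 1 together 40 (22% of all genes), a setting chosen after seeing the data. With each of the other 5 wild-type libraries left out in turn the count was 15 to 22, where 1.79 to 2.72% of all genes were called higher, and 15 genes kept their call without each of the 6 libraries. These 15 include Fbln2, Dusp15, Siglece, Kif19a, Lrp4, Gas7, Spry4, Nkd2, Gldn and Irs2. Bricd5 is also counted among them, but it passed the filter through the XY libraries, so its call remains a description. Among the abundant members called, Tcf21 and Aqp5 kept the call in 1 of these 6 fits and Lmo4 in 2.

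**Figure D4:**
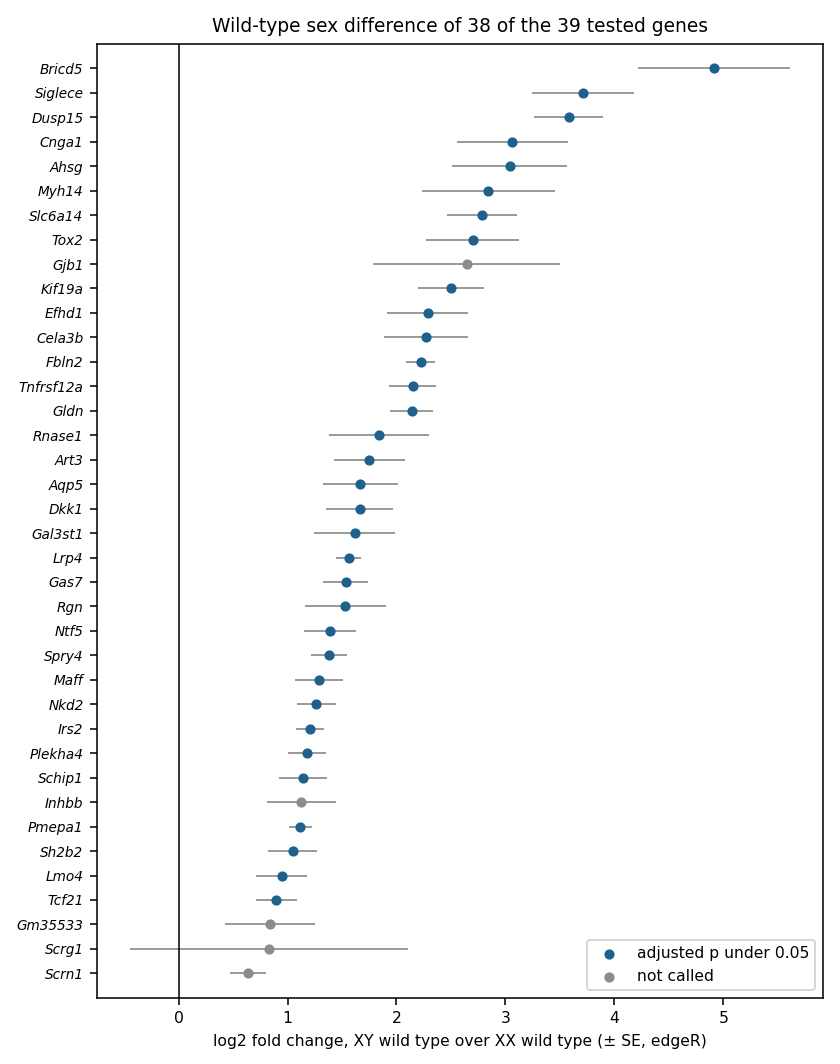
Log2 fold change of XY over XX wild type (x axis, ± SE from the edgeR fit, n = 3 each) of 38 of the 39 tested genes, ranked, blue where the adjusted p was under 0.05 and grey where not. All 38 values are above 0, from 0.63 for Scrn1 to 4.92 for Bricd5, and 33 of them were called.

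The 3 lists that hold a member can be read beside it. On the FGF and ERK response list, with Spry4, 12 of 15 genes were higher in XY wild type and 1 was lower, Fgfr2, an FGF receptor gene (30.4 ± 18.3 TPM in XY and 108 ± 13 TPM in XX). Dusp6, an ERK phosphatase gene, was at 74.0 ± 1.2 TPM in XY and 36.3 ± 5.6 TPM in XX (1.18 ± 0.13, adjusted p = 0.00267, edgeR), and Etv4 at 1.40 ± 0.22 (adjusted p = 0.00904, edgeR). On the Sertoli list, with Inhbb, 17 of 24 tested genes were higher, and of the 17 list genes that met the heterozygous sex difference the median reach was 0.70, from 0.13 for Vnn1 to 0.98 for Sox9. The stroma list, with Tcf21, had 3 of 10 genes higher, Tcf21, Gli2 and Pdgfra. Gli2, a Hedgehog effector gene, rose by 1.14 ± 0.11 (adjusted p = 0.0013, edgeR) and had a reach of 0.39. The other 19 lists hold no member, and all lists were chosen with results of these data known. Which lists hold a member also depends on the genes left out by name. Sox9, Sox10, Fgf9, Aard, Tesc, Cst9 and Mmd2, all on the Sertoli list, met the whole rule but were left out that way. So were Lefty1 and Lefty2, which are on a list of male germ cell genes.

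The XY homozygotes carry the same mutations beside a Y chromosome, and their libraries were not used by the rule either. The 3 comparisons share the XY wild-type libraries. In the 3bp-12bp-del, 1bp-ins and 3bp-del homozygotes, 0 of the 40 genes were called higher or lower (edgeR), where 0.013%, 0% and 0% of all genes were called. At an unadjusted p under 0.05 there were 10, 7 and 5 members, against 98, 77 and 79 of the 431 other genes and 6.84%, 14.2% and 10.9% of all genes. DESeq2 called 5, 3 and 3 higher and 0 lower, and edgeR with all 12 groups in 1 fit called 5, 2 and 2 higher. DESeq2 called 0.725%, 0.436% and 0.613% of all genes higher in these comparisons, and the 12-group fit 0.828%, 1.6% and 1.66%. Fold changes of all genes had a Spearman correlation with transcript length of 0.08, -0.51 and -0.31 across genes, whose part in the members' values was not tested. The median log2 fold changes of the members were 0.26, 0.18 and 0.19, and those of the 431 other genes 0.27, 0.19 and 0.25. Of the 40 members 33, 29 and 31 were above 0. Without XY wild-type replicate 3 fewer were above 0 in each comparison, and in 1bp-ins most were below 0.

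The genes that DESeq2 called in all 3 genotypes were Kif19a, Gal3st1 and Dusp15. Kif19a averaged 32.9 ± 6.8 TPM in 3bp-12bp-del, 17.1 ± 3.7 TPM in 1bp-ins and 20.1 ± 2.9 TPM in 3bp-del XY homozygotes, against 7.70 ± 1.51 TPM in XY wild type. Its log2 fold changes were 2.09 ± 0.26 (adjusted p = 0.142, edgeR; 4.32e-12, DESeq2), 1.17 ± 0.22 (0.341 and 0.00025) and 1.43 ± 0.23 (0.383 and 2.65e-06). Gal3st1 had 2.05 ± 0.30, 1.07 ± 0.24 and 1.44 ± 0.25, and Dusp15 1.53 ± 0.25, 0.90 ± 0.23 and 1.13 ± 0.31, in the same order and with adjusted p from 0.205 to 0.41 in edgeR. Without XY wild-type replicate 3, Gal3st1 stood at 1.88 ± 0.28, 0.89 ± 0.24 and 1.27 ± 0.24 and Dusp15 at 1.36 ± 0.26, 0.74 ± 0.24 and 0.97 ± 0.38, uncalled in edgeR. For Kif19a every XY homozygote was above every XY wild type, with 11.3 to 37.4 TPM against 6.08 to 9.06 TPM. For Gal3st1 the ranges were 2.95 to 11.4 TPM in XY homozygotes and 1.94 to 2.68 TPM in XY wild type. The excess over XY wild type was not confined to homozygotes. In mean log2(TPM + 1), XY heterozygotes stood at 3.93 against 3.11 in XY wild type for Kif19a. For Dusp15 these means were 4.13 and 3.66, and for Gal3st1 2.12 and 1.71, a description since the XY heterozygotes chose the genes. In the 3bp-12bp-del homozygotes DESeq2 also called Fbln2 (0.54 ± 0.11) and Lrp4 (1.08 ± 0.26), and the 12-group fit called Gas7 (0.69 ± 0.16) and Lrp4. Without XY wild-type replicate 3, edgeR called Kif19a higher (1.87 ± 0.20, adjusted p = 0.0344) and Aqp5 lower (-0.83 ± 0.09, adjusted p = 0.0209) in these homozygotes, with 0.321% of all genes higher and 0.0385% lower.

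**Figure D5:**
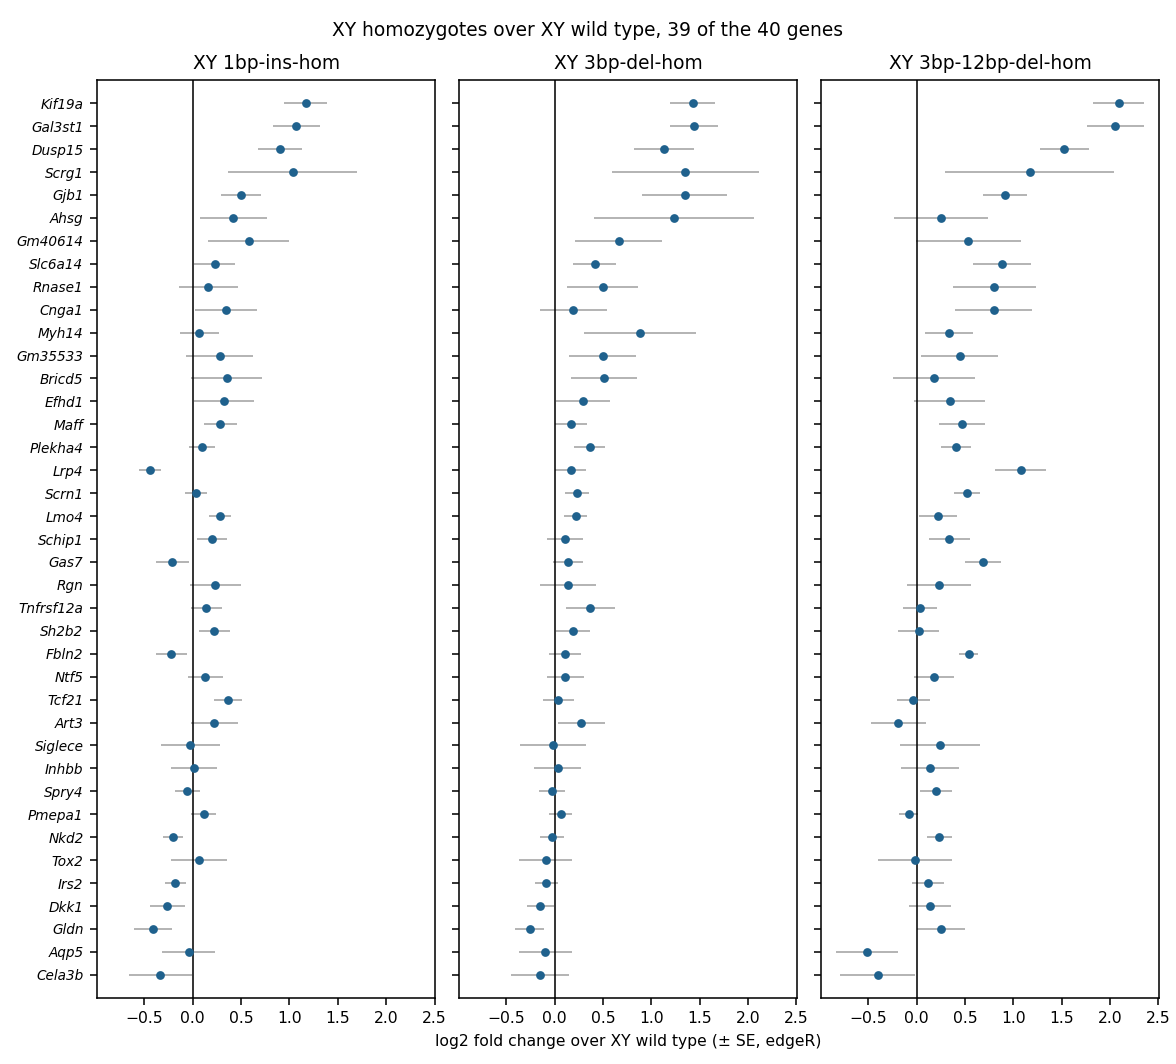
Log2 fold change (x axis, ± SE, edgeR) of 39 of the 40 genes in each XY homozygous group (3bp-12bp-del, n = 3, and 1bp-ins and 3bp-del, n = 5 each) over the same 3 XY wild types, ordered by the mean of the 3 values. Kif19a, Gal3st1 and Dusp15 lie furthest to the right in the 3bp-12bp-del panel, and no gene had an adjusted p under 0.05 in this test.

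Relative to the XY homozygotes, the mean log2 level in XX homozygotes was lower for 33 of the 40 genes and higher for 7, a description since the XX homozygotes chose the genes. The 7 were Rnase1, Gldn, Tox2, Cela3b, Aqp5, Rgn and Lmo4. Gldn averaged 13.0 ± 3.6 TPM in the 15 XX homozygotes and 8.51 ± 2.74 TPM in the 13 XY homozygotes, and Tox2 10.8 ± 1.9 and 7.48 ± 1.11 TPM. Set against XY wild type, 16 genes had a higher mean in XX homozygotes. The mean log2 level of the 40 genes was 3.74, 3.69 and 3.32 in XY wild-type replicates 1, 2 and 3. Without replicate 3, 12 genes had a higher mean in XX homozygotes. On wild-type in place of heterozygous anchors, 32 of the 40 had a reach of 0.7 or more, and 30 without XY wild-type replicate 3.

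In XY 3bp-del homozygote replicate 1, Ahsg was at 44.3 TPM, against 6.84 to 9.62 TPM in the other 4. Myh14 was at 30.3 TPM there (others 5.19 to 7.17), Gjb1 at 12.6 TPM (2.79 to 5.00) and Tnfrsf12a at 19.8 TPM (8.58 to 10.1). The summed stroma markers of that library were 1807 TPM, the highest of the 46. Their part in these values was not tested.

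The genotypes of the XX homozygotes were compared with each other. The mean of these 15 libraries entered the rule, so the members' counts here are not independent of how they were chosen, and they are given as a description. In 3bp-12bp-del compared with 3bp-del homozygotes, 8 of the 40 genes were higher and 0 lower (edgeR). Of all 15605 genes, 14.9% were called higher and 13% lower. The members' count of higher genes thus stands near the background, and their count of lower genes below it. Called or not, 32 members were above 0 and 8 below. The median log2 fold change of the members was 0.25, and of the 431 other genes 113 were higher, 1 was lower and the median of the 408 tested was 0.35. Lrp4 had the largest change, with 19.3 ± 4.8 TPM in 3bp-12bp-del, against 8.08 ± 0.95 TPM in 3bp-del homozygotes (1.09 ± 0.17, adjusted p = 0.00135, edgeR). Fbln2 had 110 ± 25 TPM in 3bp-12bp-del against 71.1 ± 8.5 TPM in 3bp-del (0.75 ± 0.16, adjusted p = 0.00743, edgeR), and Gas7 had 66.4 ± 10.5 TPM in 3bp-12bp-del against 34.9 ± 3.6 TPM in 3bp-del (0.74 ± 0.09, adjusted p = 0.000268, edgeR). Myh14, Slc6a14, Spry4, Irs2 and Inhbb were called at 0.71, 0.70, 0.39, 0.37 and 0.36. Log2 fold changes of all genes in this comparison were higher for longer transcripts (Spearman rho 0.50 across genes, which are not independent replicates). With that trend removed Lrp4, Fbln2 and Gas7 were the 3 members called, with 4.96% of all genes called higher, and without 3bp-del replicate 5 there were 5 called higher (11.2% of all genes).

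Between 3bp-12bp-del and 1bp-ins homozygotes edgeR called 0 members, where 2.81% of all genes were higher and 1.52% lower. There 5 members had an unadjusted p under 0.05 (23.3% of all genes), and DESeq2 called 4 higher, Lrp4, Irs2, Gas7 and Spry4 (7.91% of all genes higher). Lrp4 was at 0.83 ± 0.22 (adjusted p = 0.0615, edgeR), and it was called when 3bp-12bp-del replicate 3 was left out (0.96 ± 0.19, adjusted p = 0.0386). Irs2 was called without 1bp-ins replicate 3 (0.49 ± 0.10, adjusted p = 0.0463), and the rank correlation of fold change with length was 0.42. Between 1bp-ins and 3bp-del homozygotes edgeR and DESeq2 each called 0 members, 1 had an unadjusted p under 0.05 (13.6% of all genes), and edgeR called 0.0447% of all genes higher and 0.0831% lower. The 8 genes called against 3bp-del stood at 0.21 to 0.83 log2 units against 1bp-ins, uncalled, in a comparison that shares the 3bp-12bp-del libraries.

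Transcript length was not used by the rule. The members' transcripts had a median relative length of 1.18 against 1.90 in the 431 other genes and 1.60 over all genes tested, where length is the deposited count per TPM scaled per library. Across all genes the XX homozygous minus heterozygous difference was slightly lower for longer transcripts (Spearman rho -0.16), and its part in the reach values was not tested. The members are 38 protein-coding genes and 2 long non-coding RNAs. Their heterozygous sex difference, which the rule used, had a median of 1.32 log2 units and that of the 431 others 1.49.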

How the data were processed

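The counts deposited by the authors are estimated counts for each gene, with no normalization visible in the values. Between 8.00 and 8.90% of a library's counts had a fractional part, so all were rounded. TPM, also deposited by the authors, is scaled by transcript length, and a library's TPM sum was 923510 to 945851. Per the labels' protocols, each library was made from 140 ng of total RNA by poly(A) isolation. Per the submitters' processing notes, the genome build is mm10. How reads were aligned, quantified and assigned to a strand is not given in the sources used here, so antisense overlaps cannot be resolved. For counts and for TPM, 1 column matched no label and was not used.

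Reach was computed on log2(TPM + 1), with a pseudocount of 1. The 7 tests used edgeR 4.0.16 in R 4.3.3 (quasi-likelihood, TMM, filterByExpr, robust) on the libraries of the groups compared, with Benjamini-Hochberg adjustment over all genes tested and calls at adjusted p under 0.05. DESeq2 1.42.0 was an alternative. The standard error is the log2 fold change over the square root of F. The fits were tested on simulated data. The members and the 22 gene lists were chosen with earlier results of these data known. Named genes are list members, the 20 most abundant in XY wild type, the 3 with the largest called changes per direction and test, those next to the limits and the 5 largest sex differences, and others were chosen after their values were seen. Of the 40 genes, 1 is counted in the totals over 40 but is otherwise not reported here.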

Additional observations from a re-analysis of the deposited data

Results flagged for a closer look

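Over 195 groups of 5 values (39 genes in 5 groups), 10 values lay far from the other 4 libraries of their group by the Dixon criterion, which chance flags in about 1 in 20 groups. In XY 3bp-del homozygote replicate 1, Tnfrsf12a was at 19.81 TPM (others 8.58 to 10.07), Myh14 at 30.29 TPM (5.19 to 7.17), Ahsg at 44.26 TPM (6.84 to 9.62) and Gjb1 at 12.55 TPM (2.79 to 5.00). In replicate 3 of that group Efhd1 was at 20.38 TPM (14.46 to 15.85).

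In XY 1bp-ins homozygote replicate 4, Bricd5 was at 3.33 TPM (7.01 to 7.88) and Slc6a14 at 2.60 TPM (3.29 to 3.46), and in replicate 2 Aqp5 was at 53.70 TPM (35.22 to 38.25). In XX 1bp-ins homozygote replicate 5, the library with 809 TPM of Amh, Tox2 was at 6.35 TPM (10.23 to 11.55). In XX 3bp-del homozygote replicate 4, Cela3b was at 2.43 TPM (4.87 to 5.67).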

How the results depend on the processing

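The membership rests on the rule's settings. With a reach of 0.6 it took 98 genes and with 0.8 it took 19, a pseudocount of 0.1 gave 102, the whole rule on wild-type anchors gave 65 (21 of the 40 among them), the 3bp-12bp-del homozygotes alone gave 111 and the 3bp-del homozygotes alone 20. Leaving out each of the 27 libraries in turn gave 29 to 48. Without XX 1bp-ins homozygote replicate 5, the library with 809 TPM of Amh, it gave 29, with 28 of the 40 among them. Without XX 3bp-12bp-del homozygote replicate 4 it also gave 29, all from the 40. Without XY 3bp-del heterozygote replicate 2 it gave 31, with 27 of the 40 among them. In the wild types the count of members called higher was 15 to 38 with each library left out, and 33 to 40 under RLE, no filter, DESeq2, the 12-group fit, the length trend removed and both doubtful libraries left out. The replicate numbers do not pair the samples (correlations of deviations from -0.318 to 0.243), and with them as a replicate block 27 members were called higher in the wild types (3.32% of all genes) and 5 in XX 3bp-12bp-del over 3bp-del homozygotes (10.5%).

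In XX 3bp-12bp-del over 3bp-del homozygotes the count was 3 with the length trend removed, and 5 to 12 higher and 0 to 2 lower (2 without 3bp-del replicate 4) with each library left out. Over 1bp-ins it was 4 with DESeq2, 3 with the 12-group fit and 0 to 1 with each library left out. In the XY homozygotes, DESeq2 called 3 in 1bp-ins, 3 in 3bp-del and 5 in 3bp-12bp-del, the 12-group fit 2, 2 and 5, and leaving out each library gave 0 to 1 higher and 0 to 1 lower in 3bp-12bp-del, both without XY wild-type replicate 3. The cause of these differences was not tested. None of 682 values of named genes was counted as reversed under an alternative, but this count does not cover every change of sign. In XY 1bp-ins homozygotes, leaving out XY wild-type replicate 3 took some uncalled log2 fold changes from above to below 0. Among them were Rgn, from 0.23 to -0.09, and Inhbb, from 0.014 to -0.28. With 3 wild-type libraries a sex, Inhbb and Scrn1 did not overlap between the sexes and were not called. Leaving out XY heterozygous 3bp-del replicate 2, and XY wild-type replicate 3 where only levels were compared, was chosen after seeing the data.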
